A study of Mus musculus with 10 samples.

Results

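Collagen genes were taken as all rows of the deposited gene table whose symbol had the form Col, a number, a and a number, which gave 44 of 24543 rows. They comprised 11 genes of fibrillar chains, 9 of basement membrane collagens, 9 of FACITs (fibril-associated collagens with interrupted triple helices), 9 of network or beaded-filament collagens, 4 of transmembrane collagens and 2 of other types. RNA-seq had been done on total RNA of back (dorsal) skin from C57BL/6 mice that were wild type (Dlx4-WT) or labelled as knockouts of the homeobox gene Dlx4 (Dlx4-KO). Skin of WT mice at postnatal day 1 (P1) gave 3 libraries and skin of KO mice at P1 gave 3, while WT and KO skin at P60 gave 2 libraries each. The labels give neither the form of the KO allele nor whether any sample pooled several animals.

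Collagens are trimers of chains that wind into a triple helix. In dermis, types I and III form the bulk of the fibrils, type V chains are built into them and limit their diameter, and FACITs sit on their surface. Type IV forms the sheet of basement membranes, type VII the anchoring fibrils that tie the epidermal basement membrane to the dermis, type XVII spans the membrane of basal keratinocytes at hemidesmosomes, and type VI makes beaded filaments around cells. Fibroblasts make most dermal collagen, strongly while the dermis is laid down around birth.

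Libraries held 36131011 to 74916106 alignments, and values are RPKM (read numbers divided by gene length and library depth), so levels can be compared between genes. Dlx4 itself read 2.93, 3.78 and 3.42 RPKM in WT and 1.77, 2.45 and 1.62 RPKM in KO skin at P1, where the groups did not overlap, and at most 0.125 RPKM in any P60 library, so Dlx4 was lower but still present in the libraries labelled KO at P1, the form of the allele being unknown, and it gives no check of the labels at P60. The sample sheet places the 6 P1 libraries in sequencing run 1 and the 4 P60 libraries in run 2, and Xist, the RNA of the inactive X chromosome, was at 29.2 to 39.8 RPKM in 5 of the 6 P1 libraries but at most 0.105 RPKM in KO P1 replicate 2 and the 4 P60 libraries. Age and sequencing run can therefore not be told apart, and in WT skin neither can sex, while in KO skin 1 P1 library shares the pattern of the P60 libraries. Each genotype comparison lay within 1 run. At P1 the Y chromosome genes Ddx3y and Eif2s3y read 16.0 and 35.0 RPKM in KO replicate 2. They read at most 0.0164 RPKM in the other P1 libraries, so the genotypes were not balanced by sex at P1. Markers of basal keratinocytes, none of them at 0, summed to 2208 to 4461 RPKM over the 10 libraries. In whole skin, fewer cells of a type and less RNA per cell cannot be told apart either.

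Positions of collagen genes place several partners side by side. In the GENCODE M21 annotation of GRCm38, Col4a1 (chr8:11198423-11312826, minus strand) and Col4a2 (chr8:11312805-11449287, plus strand) stand head to head, with their first exons sharing 22 bases. Col3a1 (chr1:45311538-45349706, plus strand) and Col5a2 (chr1:45374321-45503282, minus strand) stand tail to tail, 24614 bp apart. Col4a5 and Col4a6 stand head to head on chromosome X, 1308 bp apart, and Col6a1 and Col6a2 lie on 1 strand of chromosome 10, 85161 bp apart. Col1a1 lies on chromosome 11 (chr11:94936224-94953042, plus strand), far from the other collagen gene there, Col23a1. Col1a2 lies on chromosome 6 (chr6:4504814-4541544, plus strand). Dlx4 is on chromosome 11 too. Its distance from Col1a1 was not measured here, and an effect of the altered locus on Col1a1 was not tested. Since no source used here states whether the authors counted by strand, reads of the bases shared by Col4a1 and Col4a2, 0.333% of the exon length of Col4a1, cannot be assigned.

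Of the 44 genes, 35 had a promoter in the RefSeq table of GRCm38.p6, which covers 250 bases before to 50 after each start. The sequences below are from genes called higher in KO skin at P60, in windows free of annotated exons. They take in the lowest and the highest GC content among such genes. Col6a3 (57.2%) and Col15a1 (53.6%) lie between and are not shown. Another window of Col6a2 (chr10:76623405-76623654) overlaps exons and is not shown either. The 250 bases before the start of Col3a1 (chr1:45311288-45311537, plus strand) have a GC content of 35.2%, those of Col5a1 (chr2:27886175-27886424, plus strand) of 76.4% and those of Col6a2 (chr10:76623631-76623880, minus strand) of 59.2%. Capitals mark TATAAA, the only match among TATAAA and CCAAT and TAATT found in these windows on either strand. The bases shared by the first exons of Col4a1 and Col4a2 (chr8:11312805-11312826, written on the plus strand) follow them.
Col3a1: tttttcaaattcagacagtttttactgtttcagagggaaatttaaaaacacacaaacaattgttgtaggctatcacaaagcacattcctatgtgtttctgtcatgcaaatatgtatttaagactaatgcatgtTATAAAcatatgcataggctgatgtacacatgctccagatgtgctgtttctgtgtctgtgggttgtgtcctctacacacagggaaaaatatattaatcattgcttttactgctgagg
Col5a1: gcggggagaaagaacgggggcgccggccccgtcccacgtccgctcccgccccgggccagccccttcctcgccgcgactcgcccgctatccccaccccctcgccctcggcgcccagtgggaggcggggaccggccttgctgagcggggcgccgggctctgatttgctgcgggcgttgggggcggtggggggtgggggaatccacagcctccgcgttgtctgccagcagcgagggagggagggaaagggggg
Col6a2: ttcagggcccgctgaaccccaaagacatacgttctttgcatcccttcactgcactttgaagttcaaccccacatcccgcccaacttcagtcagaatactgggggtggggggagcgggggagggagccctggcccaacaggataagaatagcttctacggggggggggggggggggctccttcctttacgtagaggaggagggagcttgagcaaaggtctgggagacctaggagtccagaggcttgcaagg
Col4a1 and Col4a2: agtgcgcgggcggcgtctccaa

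These letters occurred as follows in the collagen promoters, which describes the windows and names no binding site. TATAAA, the core of a TATA box, was found on either strand in 5 of 35 collagen genes and in 15.7% of all 27025 genes in the table, and ended 112 bases before the start in Col3a1. CCAAT was found in 13 of 35 collagen genes against 41.1% of all genes. GGGCGG, the GC box, was found in 22 of 35 against 38.2% of all genes. TAATT, a core often bound by homeodomain proteins, was found in 4 of 35 against 29.9% of all genes. Among the 12 genes with a window that were higher in KO skin at P60, TATAAA was found in 1, CCAAT in 5, GGGCGG in 8 and TAATT in 0.

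Collagen RNA in newborn skin was led by a few dermal chains. In WT skin at P1 the highest mean was that of Col3a1, the single chain of type III collagen, at 1801 ± 157 RPKM (SD, n = 3), above all libraries of Col1a2 (1006 ± 111 RPKM) and Col1a1 (993 ± 96.9 RPKM), the chains of type I collagen, which overlapped each other. Col6a1, Col6a2, Col4a1, Col5a1, Col4a2 and Col5a2 followed, at means of 295, 193, 179, 121, 120 and 109 RPKM, and of these Col6a2 overlapped Col4a1 and the last 3 overlapped in turn. In WT skin at P60 the order began with Col1a1 (1715 ± 213 RPKM, n = 2) and Col1a2 (1710 ± 190 RPKM), which overlapped, then Col3a1 (942 ± 205 RPKM), Col17a1 (165 ± 22.7 RPKM) and Col6a1 (61.9 ± 16.4 RPKM). Types I and III together made up 70.6% to 72.7% of collagen RPKM in the 6 P1 libraries and 89.7% to 95.6% in the 4 P60 libraries.

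**Figure D1:**
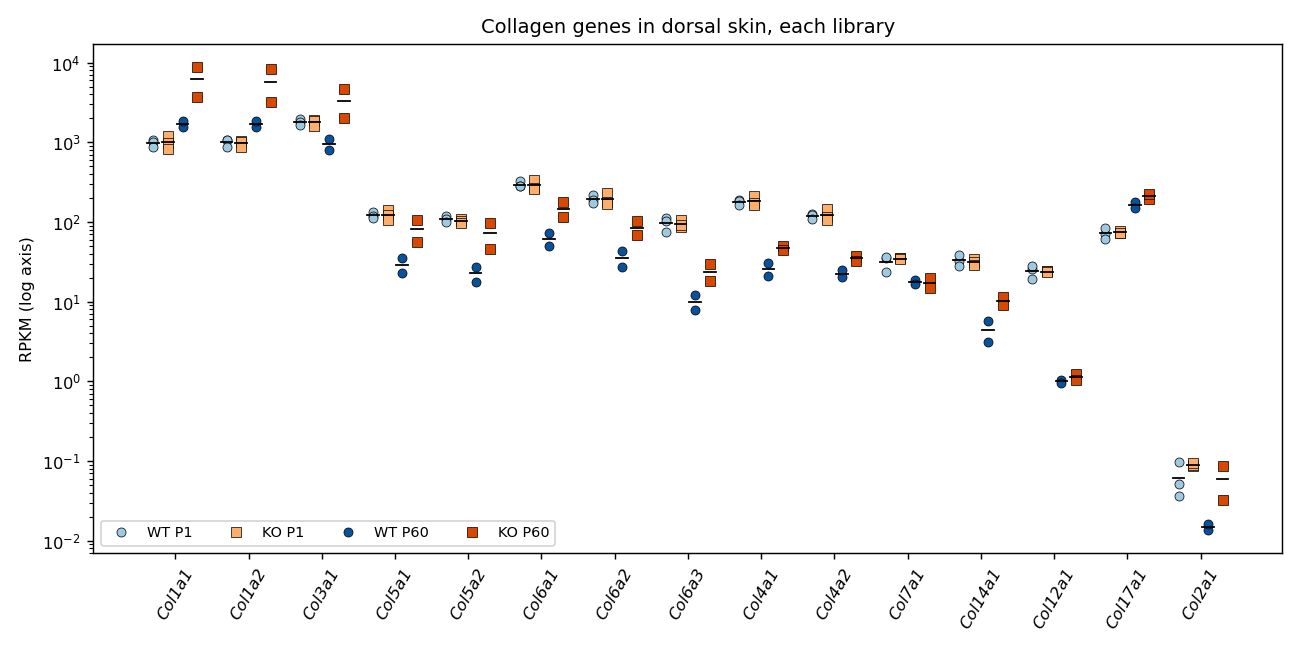
RPKM of 15 collagen genes in each library, on a log axis, with 1 point a library and a bar at the group mean (WT P1 and KO P1, n = 3 each; WT P60 and KO P60, n = 2 each). The P1 groups overlap for every gene shown, KO P60 points lie above WT P60 points for all but Col7a1 and Col12a1, whose groups overlap, and Col2a1 stays at or under 0.0980 RPKM.

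Genes were tested where they reached 1 RPKM in at least 2 libraries, which kept 32 collagen genes of the 14026 tested in all. The 12 others were Col2a1, Col11a2 and Col24a1 of the fibrillar chains, Col4a3 and Col4a4 of type IV, Col9a1, Col9a2, Col19a1 and Col22a1 of the FACITs, and Col6a4, Col6a5 and Col10a1 of the networks. Col9a2 reached 1.68 RPKM, Col4a4 1.20, Col4a3 1.18 and Col11a2 1.13 RPKM in 1 library each, and the other 8 stayed under 1 RPKM. Several of these are chains of cartilage. Col2a1, the main fibrillar chain of cartilage, read 0.0362, 0.0509 and 0.0980 RPKM in WT P1, 0.0874, 0.0882 and 0.0938 RPKM in KO P1, 0.0136 and 0.0161 RPKM in WT P60, and 0.0322 and 0.0878 RPKM in KO P60 libraries. Col10a1, the collagen of hypertrophic cartilage, stayed at or under 0.0430 RPKM and was listed at 0 in KO P60 replicate 2.

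At P1 no collagen gene passed the test between KO and WT skin. In limma with Benjamini-Hochberg adjustment over all genes, 0 of 32 collagen genes were called at an adjusted p under 0.05, as were 0% of the 14026 genes tested. An unadjusted p under 0.05 was found for 0 collagen genes and for 130 of all tested genes. The collagen genes had a median log2 change of 0.01 against -0.01 over all tested genes, and for 0 of them did the 3 KO libraries lie wholly above or below the 3 WT libraries, which was so for 2.08% (above) and 2.48% (below) of all tested genes. The 95% intervals of the log2 changes had a median half-width of 0.44. Of the 44 collagen genes in the authors' deposited table, 1, the low Col9a1, had a p under 0.05 at P1 (p = 0.0385) and 0 had a q under 0.05.

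The collagen genes of smallest p at P1 were low or spread widely among replicates. Col8a2, a short network chain, read 0.672, 0.932 and 0.806 RPKM in WT and 1.31, 1.29 and 0.889 RPKM in KO libraries, which overlapped, with a log2 change of 0.34 (SE 0.21, interval -0.13 to 0.82). Col7a1, the anchoring fibril chain, read 35.6, 23.9 and 36.0 RPKM in WT and 35.5, 35.1 and 34.0 RPKM in KO libraries, so that WT replicate 2 alone stood apart. Its log2 change of 0.15 (SE 0.16) turned to -0.04 without that library. Col5a3, a minor type V chain, had a log2 change of -0.19 (SE 0.22) between overlapping groups, and the adjusted p in limma with Benjamini-Hochberg adjustment was 1 for each of these.

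At P60 the chains of type I and type III collagen, Col5a1 and Col5a2 of type V, the main chains of type VI, and some chains of basement membranes were higher in KO than in WT skin. The test called 15 of 32 collagen genes higher and 0 lower in KO skin, against 8.21% of all tested genes called higher and 2.91% lower. The median log2 change of the collagen genes was 0.61 against 0.13 over all tested genes. A value above 0 was found for 29 of the 32, and for 9239 of all 14026 tested genes. By class, 5 of 8 fibrillar, 4 of 6 network, 4 of 7 basement membrane, 2 of 5 FACIT, 0 of 4 transmembrane and 0 of 2 other collagen genes were called, with median log2 changes of 1.50, 1.01, 0.63, 0.13, 0.15 and 0.08. Both KO libraries lay above both WT libraries for 20 collagen genes, which was so for 42.7% of all tested genes, and lay below for 0, against 18.8%.

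These calls were held by narrow margins, with adjusted p between 0.0308 and 0.0497 in limma with Benjamini-Hochberg adjustment. The count was 0 with no filter on low values, with the replicate number as a block, with only the P60 samples in the fit, and without any one of WT P1 replicate 1, KO P1 replicate 2, KO P1 replicate 3, WT P60 replicate 1 or KO P60 replicate 1. With no filter, 22 of the 44 collagen genes then tested had an unadjusted p under 0.05. In the others of these fits that kept at least 2 libraries a group, 15 to 17 of 32 had one. As reported, 18 of the 32 had one, against 4496 of all 14026 tested genes. Quantile normalization left 2 calls, Col6a1 and Col6a2. All 15 genes had a positive log2 change in each of the 21 alternatives that tested them (20 for Col6a6, which the filter of 5 RPKM removed), and none was called in all of them. Scaling to median-of-ratios size factors took the all-gene shift from 0.13 to 0 and turned the all-gene split from 1152 higher and 408 lower to 490 and 992, while the collagen genes stood at 12 higher and 0 lower. Of the 44 collagen genes in the authors' deposited table, 15 had a p under 0.05 at P60, the lowest being 0.00283 for Col1a1, and 0 had a q under 0.05. These 15 are the genes called here, except that Col4a4, not tested here, stands in place of Col6a3, called here. In the authors' analysis of variance Col4a4 had p = 0.00552 and Col6a3 had p = 0.0569.

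**Figure D2:**
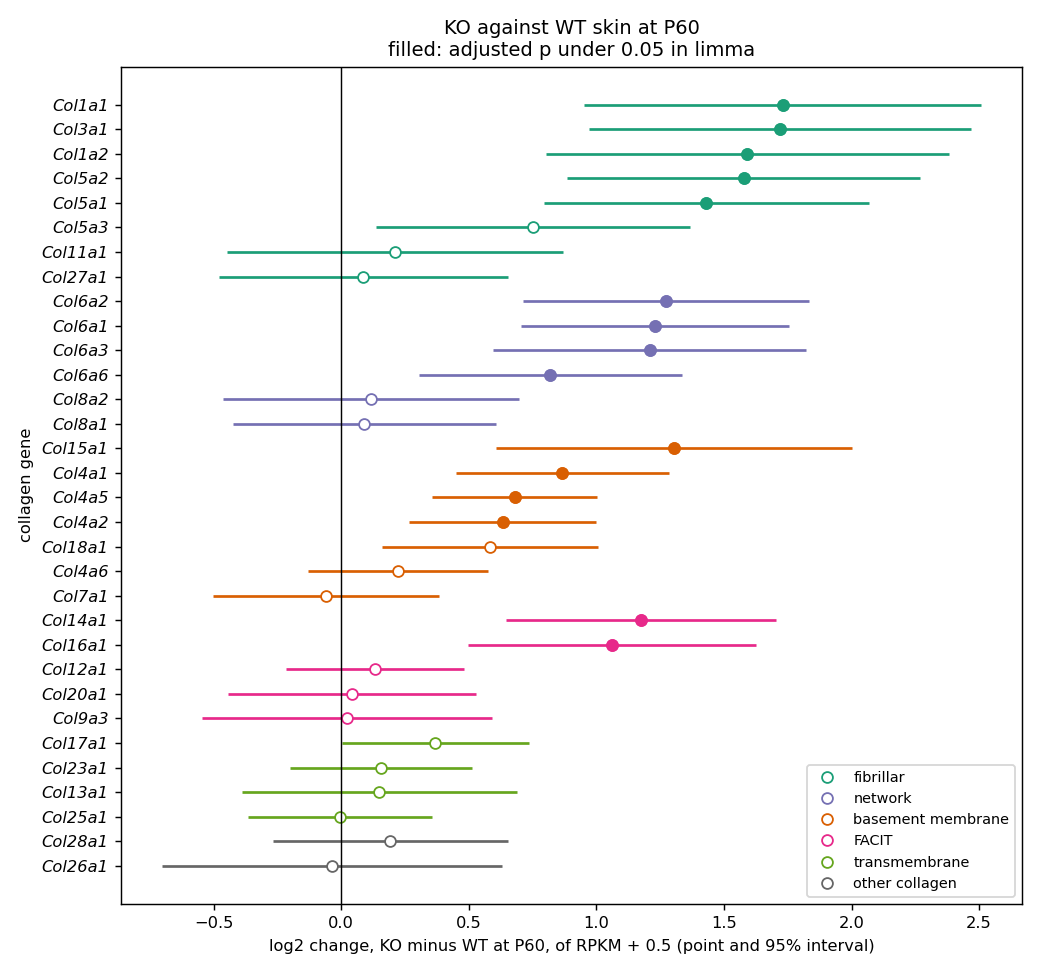
Log2 change (KO minus WT at P60, of RPKM + 0.5) of the 32 tested collagen genes as points with 95% intervals from limma, grouped by class; filled points have an adjusted p under 0.05. Filled points run from 0.63 (Col4a2) to 1.73 (Col1a1) and belong to the fibrillar, network, basement membrane and FACIT classes.

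Among fibrillar chains, those of the main dermal fibrils were the ones called. Col1a1 read 1564 and 1866 RPKM in WT and 8792 and 3657 RPKM in KO libraries at P60. The groups did not overlap, and KO replicate 1 was 2.40 times KO replicate 2. The log2 change of 1.73 (SE 0.35) passed at adjusted p = 0.0308 (limma, Benjamini-Hochberg), and it was 1.10 without KO P60 replicate 1, where it was not called. Col1a2, the other type I chain, read 1576 and 1845 RPKM in WT and 8262 and 3198 RPKM in KO libraries, with a log2 change of 1.59 (SE 0.35), and 0.91 without KO P60 replicate 1. Col3a1 read 797 and 1087 RPKM in WT and 4702 and 1998 RPKM in KO libraries, with a log2 change of 1.72 (SE 0.33), and 1.10 without KO P60 replicate 1. All of them placed the same library, KO replicate 1, well above the others, and without KO P60 replicate 2 the log2 changes of Col1a1, Col1a2 and Col3a1 were 2.36, 2.28 and 2.34.

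Col5a1 and Col5a2, type V chains, showed the same order of libraries as Col1a1 at a lower level. Col5a2 read 17.8 and 27.7 RPKM in WT and 98.7 and 45.7 RPKM in KO libraries, without overlap, with a log2 change of 1.58 (SE 0.31), and Col5a1 had 1.43 (SE 0.28). Col5a3 read 7.84 and 12.4 RPKM in WT and 16.5 and 17.4 RPKM in KO libraries, and its log2 change of 0.75 (SE 0.28) missed the threshold at an adjusted p of 0.0973 in limma with Benjamini-Hochberg adjustment. The remaining fibrillar chains, Col11a1 and Col27a1, were at or under 1.48 RPKM in every P60 library, with log2 changes of 0.21 (interval -0.45 to 0.87) and 0.09 (interval -0.48 to 0.65).

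All 3 main chains of type VI collagen, which form 1 heterotrimer, were called higher in KO skin at P60. Col6a1 read 50.3 and 73.5 RPKM in WT and 177 and 116 RPKM in KO libraries, with a log2 change of 1.23 (SE 0.23). Col6a2 read 27.4 and 42.9 RPKM in WT and 102 and 68.3 RPKM in KO libraries, with a log2 change of 1.27 (SE 0.25). Col6a3, the chain with the longest amino-terminal part, read 7.80 and 12.1 RPKM in WT and 29.7 and 18.0 RPKM in KO libraries, with a log2 change of 1.21 (SE 0.27). None of these groups overlapped, and the distance between the KO libraries was smaller than for type I. Col6a6, an alternative to the third chain, read 0.230 and 0.654 RPKM in WT and 1.07 and 1.17 RPKM in KO libraries, with a log2 change of 0.82 (SE 0.23) that stood at the threshold. The short network chains Col8a1 and Col8a2 were not called, at 0.09 (interval -0.43 to 0.61) and 0.12 (interval -0.46 to 0.70).

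Type IV chains were called with smaller changes. Col4a1 read 21.2 and 30.8 RPKM in WT and 50.2 and 44.1 RPKM in KO libraries at P60, with a log2 change of 0.87 (SE 0.19), and its neighbour Col4a2 read 20.3 and 24.8 against 37.9 and 32.5 RPKM, with 0.63 (SE 0.16). Neither overlapped between genotypes, and the KO libraries lay close together. Col4a5 read 2.03 and 1.65 RPKM in WT and 3.52 and 2.96 RPKM in KO libraries, with 0.68 (SE 0.14), while its neighbour Col4a6, at 3.41 and 2.57 against 3.31 and 3.79 RPKM, overlapped and was not called at 0.22 (interval -0.13 to 0.58). Col15a1, whose product bridges basement membranes and fibrils, read 16.9 and 18.2 RPKM in WT and 60.3 and 32.1 RPKM in KO libraries, with 1.30 (SE 0.31). Its relative Col18a1, the source of endostatin, had 0.58 (SE 0.19) and missed the threshold at an adjusted p of 0.0716 in limma with Benjamini-Hochberg adjustment.

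Col7a1 and Col17a1, the anchoring fibril and hemidesmosomal collagens of the junction between epidermis and dermis, were not called at P60. Col7a1 read 18.8 and 16.8 RPKM in WT and 14.7 and 19.7 RPKM in KO libraries, where the KO values lay on both sides of the WT values, with a log2 change of -0.06 (interval -0.50 to 0.38) that turned positive without WT P60 replicate 1 (0.02) or KO P60 replicate 1 (0.14). Col17a1 read 181 and 149 RPKM in WT and 197 and 228 RPKM in KO libraries, without overlap, and its log2 change of 0.37 (interval 0.00 to 0.74) had an adjusted p of 0.155 in limma with Benjamini-Hochberg adjustment.

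FACITs divided into 2 that were called and 3 that were not. Col14a1, which coats mature fibrils, read 3.15 and 5.78 RPKM in WT and 11.6 and 9.15 RPKM in KO libraries at P60, with a log2 change of 1.17 (SE 0.24). Col16a1 read 18.8 and 17.7 RPKM in WT and 55.0 and 27.0 RPKM in KO libraries, with 1.06 (SE 0.25). Col12a1, the close relative of Col14a1, stayed near 1 RPKM in all 4 libraries (1.04 and 0.954 in WT, 1.25 and 1.03 in KO), with 0.13 (interval -0.22 to 0.48). The 3 FACIT genes not called, Col9a3, Col12a1 and Col20a1, were at or under 1.85 RPKM in every P60 library.

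Other measures of these P60 libraries moved with the collagen genes. Dermal fibroblast markers that are not collagens, none of them at 0, summed to 501 and 800 RPKM in WT and 1867 and 1140 RPKM in KO libraries, so the library highest in collagen was also highest in these markers, and 7 of 12 were called higher (8.21% of all tested genes), with a median log2 change of 0.92 (0.13 over all tested genes). Both KO libraries lay above both WT libraries for Col1a1 itself, as for 42.7% of all tested genes. Ratios of Col1a1 to markers all share Col1a1, and their share over all genes was not computed. The ratio of Col1a1 to a marker was above both WT libraries in both KO libraries for 7 of the 12 markers. For Lum, a proteoglycan, it was 27.3 and 33.4 in WT and 36.4 and 36.6 in KO libraries, for the surface protein Thy1 40.8 and 61.7 against 147 and 119, and for the receptor Pdgfra 976 and 423 against 1236 and 606. Skeletal muscle markers, none at 0, summed to 46341 and 52247 RPKM in WT and 19912 and 34300 RPKM in KO libraries, lowest where collagen was highest, with 1 of 12 called lower (2.91% of all tested genes) and a median of -0.92. Macrophage markers, none at 0, summed to 117 and 242 RPKM in WT and 357 and 345 RPKM in KO libraries, with 4 of 8 called higher and a median of 1.19. Adipocyte markers, none at 0, had a median of 0.62 with 7 of 8 above 0, of which 0 were called and 3 had an unadjusted p under 0.05. Over all 14026 tested genes 9239 lay above 0 and 4496 had such a p. Of basal keratinocyte, endothelial, Schwann cell and cartilage markers 0 were called in limma, with medians of 0.17, 0.18, -0.17 and 0.08 and with 1, 1, 0 and 0 at an unadjusted p under 0.05, and 2 or 3 of the 7 cartilage markers were at 0 in each P60 library. With muscle marker genes taken out of the total, collagen made up 1.20% to 1.41% of summed RPKM in WT and 2.58% to 6.28% in KO libraries. The part of these cell types in the collagen difference was not tested.

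Genes for making and cross-linking collagen were listed beside the chains, and their counts and those of the markers are to be read against the 8.21% of tested genes called higher, the 2.91% called lower and the median of 0.13. No gene of the table, and so none of these lists, was called with the replicate block, with only the P60 samples, without KO P1 replicate 2 or without KO P60 replicate 1. Of 20 genes for collagen biosynthesis and folding, 6 were called higher and 0 lower at P60, with a median log2 change of 0.41. Serpinh1, the collagen chaperone HSP47, read 78.3 and 121 RPKM in WT and 306 and 165 RPKM in KO libraries, with 1.21 (SE 0.29); the prolyl hydroxylase P3h2 had 0.84 (SE 0.18) and the lysyl hydroxylase Plod1 0.94 (SE 0.22). Of 13 genes for propeptide cleavage and cross-linking, 11 were tested and 6 called higher and 0 lower, with a median of 1.17. Lox, a lysyl oxidase, read 12.5 and 15.4 RPKM in WT and 49.2 and 21.5 RPKM in KO libraries, with 1.20 (SE 0.29), and its relatives Loxl2 and Loxl4 had 1.58 (SE 0.27) and 1.28 (SE 0.25). Serpinh1 and Lox, like Col1a1, were highest in KO replicate 1. Of 9 collagen receptors, 7 were tested and 2 called higher, namely Ddr2, a receptor tyrosine kinase for fibrillar collagen, at 0.66 (SE 0.15) and Mrc2, an endocytic collagen receptor, at 1.04 (SE 0.26). At P1 0 genes of the biosynthesis, cross-linking and receptor lists were called and 0 had an unadjusted p under 0.05. Of the markers 0 were called, and 1, of dermal fibroblasts, had such a p, as had 130 of all 14026 tested genes.

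**Figure D3:**
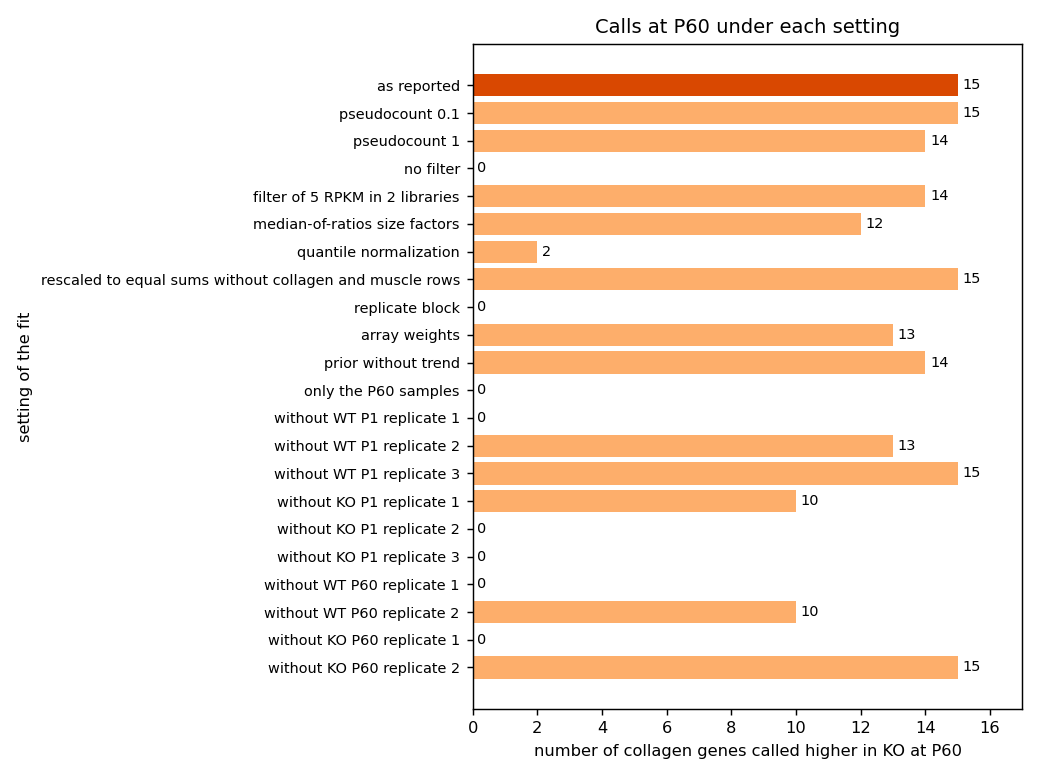
Number of the 32 tested collagen genes called higher in KO skin at P60 in limma (adjusted p under 0.05) as reported (dark bar) and under each of 21 alternatives (light bars). The bar stands at 15 as reported, at 0 in 8 alternatives, at 2 with quantile normalization and at 10 to 15 in the others.

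Between P1 and P60 most collagen genes were lower at the later age, in wild-type skin by a median log2 change of -1.75 against -0.47 over all tested genes. In WT skin 25 of 32 collagen genes were called lower and 3 higher, against 56% of all tested genes lower and 20% higher, 76% in all. The 2 WT libraries at P60 lay below the 3 at P1 for 25 collagen genes and above for 4, against 59.5% and 22.3% of all tested genes. With median-of-ratios size factors, which brought the all-gene shift from -0.47 to -0.01 and the all-gene split from 2810 higher and 7854 lower to 4961 and 5017, the collagen count was 23 lower and 6 higher. Of the 28 calls 24 were made in every alternative that tested the gene (20, or 19 for Col6a6, Col8a1, Col8a2, Col13a1 and Col25a1, which the filter of 5 RPKM removed), the others being Col1a1, Col3a1, Col7a1 and Col28a1. In KO skin 21 collagen genes were called lower and 5 higher, against 49.2% and 21.6% of all tested genes (70.9% in all), with a median of -0.96 against -0.32. Both KO libraries at P60 lay below the 3 at P1 for 22 collagen genes and above for 5, against 55.7% and 26.5% of all tested genes. In both genotypes age stands together with sequencing run. KO P1 replicate 2, the P1 library with the Xist level of the P60 libraries, read 24.0 RPKM for Col12a1, where the other KO P1 libraries read 24.0 and 23.5 RPKM and the KO P60 libraries 1.25 and 1.03 RPKM. For Col1a1 it read 984 RPKM, between the other KO P1 libraries. The part of sex in the changes with age was not tested.

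On the scale of log2(RPKM + 0.5), the steepest falls in WT skin among the 32 tested genes were those of Col12a1, Col26a1 and Col11a1. By the ratio of mean RPKM at P1 to that at P60, the low Col25a1 came first at 32.9, before Col11a1 at 27.9, Col12a1 at 24.5 and Col26a1 at 24.3. Col12a1, a FACIT, read 25.8, 27.9 and 19.5 RPKM at P1 and 1.04 and 0.954 RPKM at P60, a log2 change of -4.04 (SE 0.14). Col11a1, a minor fibrillar chain best known from cartilage, read 6.83, 10.6 and 6.16 RPKM at P1 and 0.352 and 0.211 RPKM at P60, with -3.39 (SE 0.27). Col26a1, of the group without a class, read 9.46, 5.92 and 11.3 RPKM at P1 and 0.321 and 0.410 RPKM at P60, with -3.40 (SE 0.27). None of these overlapped between the ages, and their changes in KO skin were -3.89, -3.30 and -3.52. Col27a1, a fibrillar chain of developing cartilage, read 10.3, 6.19 and 12.1 RPKM at P1 and 1.05 and 1.27 RPKM at P60, with -2.55 (SE 0.23), and Col14a1 read 32.8, 38.3 and 28.5 RPKM at P1 and 3.15 and 5.78 RPKM at P60, with -2.81 (SE 0.22).

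The called chains of types IV, V and VI were also lower at P60 in WT skin. Col4a6 was the exception among tested type IV chains (-0.06, not called), and the untested Col4a3 and Col4a4 had higher means at P60 (0.520 against 0.181 and 0.522 against 0.294 RPKM) and were called higher with no filter. Col4a1 read 190, 184 and 165 RPKM at P1 in WT skin and 21.2 and 30.8 RPKM at P60, with a log2 change of -2.79 (SE 0.17), and Col4a2 read 126, 123 and 110 RPKM against 20.3 and 24.8 RPKM, with -2.39 (SE 0.15). Col5a2 read 119, 111 and 98.8 RPKM against 17.8 and 27.7 RPKM, with -2.27 (SE 0.28). Col6a1 read 324, 281 and 280 RPKM against 50.3 and 73.5 RPKM, with -2.27 (SE 0.21). Groups did not overlap for any of them. Col6a2, at 216, 188 and 174 RPKM against 27.4 and 42.9 RPKM, had -2.47 (SE 0.23), and Col6a3, at 112, 104 and 75.0 RPKM against 7.80 and 12.1 RPKM, had -3.23 (SE 0.25), the largest fall among network chains. In KO libraries at P1 these chains stood at like levels, with Col4a1 at 214, 172 and 164 RPKM, Col4a2 at 145, 117 and 106 RPKM and Col5a2 at 109, 102 and 96.7 RPKM. The type VI chains in KO skin at P1 read 341, 267 and 262 RPKM for Col6a1, 231, 178 and 171 RPKM for Col6a2, and 106, 87.6 and 91.3 RPKM for Col6a3.

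Type I and type III moved apart with age. Col1a1 read 1072, 1023 and 885 RPKM in WT and 1188, 984 and 817 RPKM in KO skin at P1, so every P60 library of either genotype lay above every P1 library. With age it rose by a log2 change of 0.79 (SE 0.32) in WT, at adjusted p = 0.0444 (limma, Benjamini-Hochberg), and by 2.52 (SE 0.32) in KO skin. The WT call for Col1a1 was kept in 8 of 20 alternatives and was lost on leaving out any one of the P1 or WT P60 libraries. Col1a2 read 1071, 1069 and 877 RPKM in WT and 1042, 1005 and 875 RPKM in KO skin at P1, and its change of 0.77 (SE 0.32) in WT skin missed the threshold at an adjusted p of 0.0513 in limma with Benjamini-Hochberg adjustment, while it rose by 2.40 (SE 0.32) in KO skin.

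Col3a1 read 1949, 1816 and 1637 RPKM in WT and 1930, 1862 and 1623 RPKM in KO skin at P1. Both WT libraries at P60 lay below all of these and both KO libraries at P60 lay above them. The log2 change with age was -0.95 (SE 0.31) in WT, with an adjusted p of 0.0168, and 0.77 (SE 0.31) in KO skin, with an adjusted p of 0.0452, in limma with Benjamini-Hochberg adjustment. The WT call was lost without WT P60 replicate 1 (-0.72), with no filter and with median-of-ratios size factors (-0.43). The KO call was kept in 9 of 20 alternatives, was lost without any one of the 6 P1 libraries, stood at 0.15 without KO P60 replicate 1 and turned to -0.31 with quantile normalization.

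Col17a1 and Col8a2 were the other collagen genes called higher at P60. Col17a1, the hemidesmosomal collagen, read 70.0, 60.5 and 85.0 RPKM in WT and 71.9, 77.9 and 72.2 RPKM in KO skin at P1, and every P60 library exceeded every P1 library. Its log2 change was 1.20 (SE 0.15) in WT and 1.51 (SE 0.15) in KO skin, called in every alternative. Col8a2 read 0.672, 0.932 and 0.806 RPKM at P1 and 3.55 and 1.74 RPKM at P60 in WT skin, with 1.21 (SE 0.24), and it had 0.99 (SE 0.24) in KO skin. Col7a1, at the same junction as Col17a1, fell by 0.80 on the log2 scale in WT skin (SE 0.18) without overlap, a call lost with median-of-ratios size factors (-0.30).

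The transmembrane chains and Col28a1, which has no class, are given next. Col23a1 read 9.20, 6.72 and 10.1 RPKM at P1 and 4.37 and 4.32 RPKM at P60 in WT skin, with a log2 change of -0.90 (SE 0.15). Col25a1, a membrane collagen made by muscle and nerve cells, read 0.973, 1.02 and 1.12 RPKM at P1 and 0.0465 and 0.0165 RPKM at P60, with -1.53 (SE 0.15) on a scale that adds 0.5 RPKM and so understates it. Both genes were separated between the ages without overlap. Col28a1, known from the sheath of peripheral nerves, read 1.92, 2.43 and 2.41 RPKM at P1 and 1.09 and 0.829 RPKM at P60, with -0.91 (SE 0.19), and was not called with quantile normalization. Col4a6, Col9a3 and Col20a1, beside Col1a2, were not called in WT skin, at -0.06 (SE 0.14), -0.37 (SE 0.23) and 0.10 (SE 0.20).

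**Figure D4:**
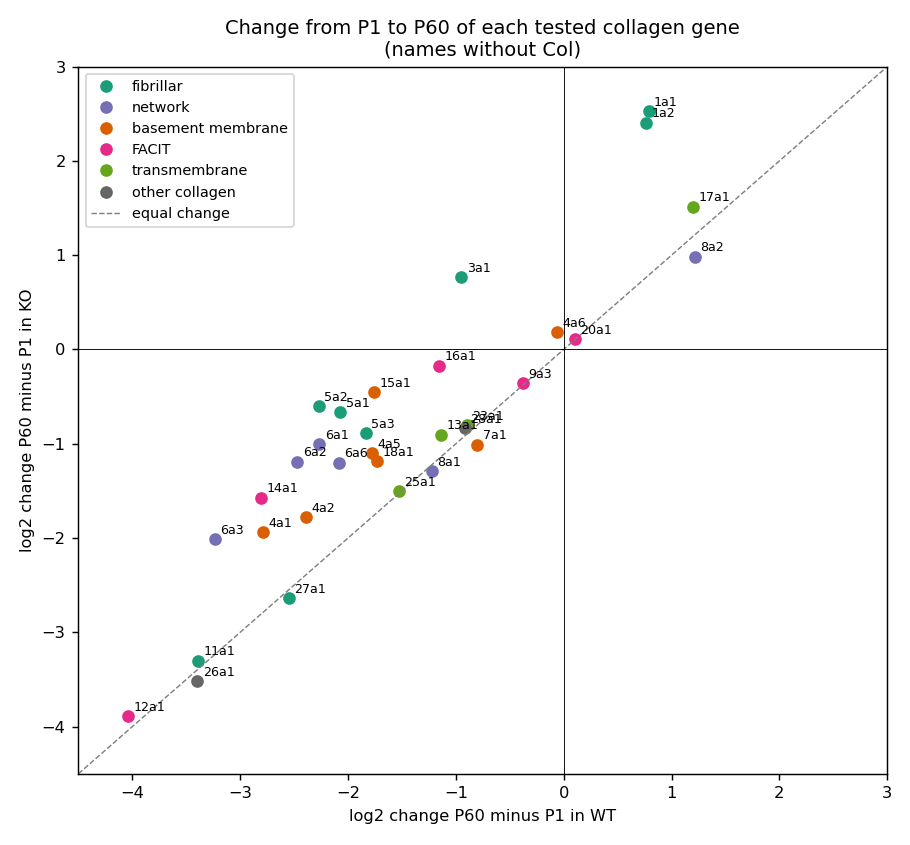
Log2 change from P1 to P60 (of RPKM + 0.5) of the 32 tested collagen genes in WT (horizontal axis) and KO skin (vertical axis), coloured by class, with the dashed line of equal change. Col12a1, Col26a1, Col11a1 and Col27a1 lie near the line at the lower left, Col1a1 and Col1a2 lie above it at the top, and Col3a1 lies at -0.95 in WT and 0.77 in KO skin.

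The difference between the genotype effects at P60 and at P1 was tested directly, and 0 of 32 collagen genes passed in limma with Benjamini-Hochberg adjustment, as did 0% of all tested genes. At an unadjusted p under 0.05 there were 16 of the 32, against 3214 of all 14026 tested genes. Those of smallest p were Col5a2, with a difference of log2 changes of 1.67 (SE 0.40), Col6a1, with 1.26 (SE 0.30), and Col14a1, with 1.23 (SE 0.31), at adjusted p of 0.110, 0.110 and 0.111 in limma with Benjamini-Hochberg adjustment. The P1 values behind them were -0.09 for Col5a2, -0.03 for Col6a1 and -0.06 for Col14a1. The count rose to 12 with array weights, to 10 without KO P60 replicate 2 and to 4 without WT P60 replicate 2. A call at P60 and none at P1 is therefore not in itself a tested difference between the ages.

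Ratios within a library do not depend on how libraries were scaled. The ratio of Col3a1 to Col1a1 was 1.82, 1.78 and 1.85 in WT and 1.62, 1.89 and 1.99 in KO libraries at P1, and 0.509 and 0.582 in WT and 0.535 and 0.546 in KO libraries at P60. The ages did not overlap, with means of 1.82 at P1 and 0.543 at P60 (exact permutation test over samples, two-sided, 6 against 4, p = 0.00952, the smallest it can give; 0.0190 adjusted over the 4 measures tested). Between genotypes at P60 the means were 0.546 and 0.540 (exact permutation p = 1, where 2 against 2 cannot go below 0.333). Col3a1 and Col1a1 were thus each higher in KO libraries at P60, while their ratio differed between genotypes by less than its spread among the WT libraries.

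Col6a1 to Col6a2, partners in 1 trimer, stood at 1.48 to 1.61 at P1 and 1.70 to 1.84 at P60, again without overlap (exact permutation p = 0.00952, adjusted 0.0190). The ratio of Col1a1 to Col1a2, whose protein chains join 2 to 1, was 0.934 to 1.14 at P1 and 0.993 to 1.14 at P60, with overlapping ages (exact permutation p = 0.305). The share of all collagen genes in summed RPKM was 1.60%, 1.52% and 1.30% in WT and 1.60%, 1.50% and 1.31% in KO libraries at P1, and 1.06% and 1.24% in WT and 5.95% and 2.36% in KO libraries at P60. The WT libraries at P60 lay below and the KO libraries above all P1 libraries, and pooled over genotypes the difference between the ages did not pass the test (exact permutation p = 0.286). Without KO P60 replicate 1 the difference between the ages fell from 1.18 to 0.0803 percentage points.

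Other ratios are given as descriptions. Col6a3 to Col6a1 was 0.268 to 0.370 at P1 and 0.155 to 0.168 at P60, and Col5a2 to Col1a1 was 0.0916 to 0.118 at P1 and 0.0112 to 0.0148 at P60. In both, the 4 P60 libraries of either genotype lay together and apart from P1. Col4a5 to Col4a6, neighbours on chromosome X, was 2.23 to 2.63 at P1 and 0.595 and 0.640 in WT and 1.06 and 0.781 in KO libraries at P60. Col4a1 to Col4a2 was 1.46 to 1.55 at P1 and 1.04 and 1.24 in WT and 1.32 and 1.36 in KO libraries at P60. For these type IV pairs both KO libraries at P60 lay between the WT libraries at P60 and the P1 libraries.

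**Figure D5:**
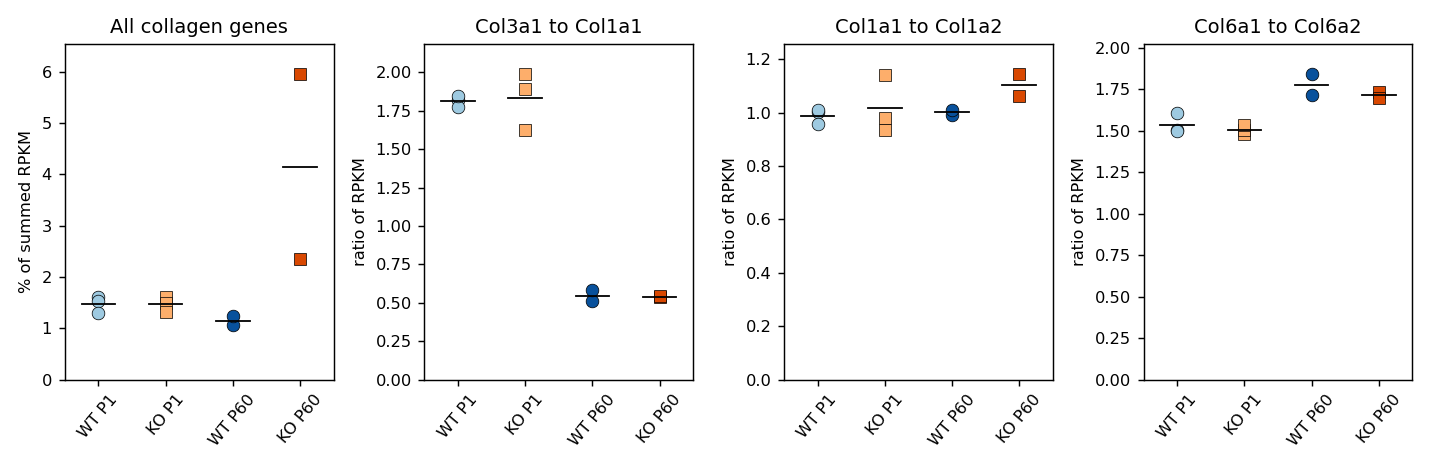
The percent of summed RPKM held by all 44 collagen genes and the ratios Col3a1 to Col1a1, Col1a1 to Col1a2 and Col6a1 to Col6a2, with 1 point a library and a bar at the group mean (n = 3, 3, 2 and 2). Col3a1 to Col1a1 lies between 1.62 and 1.99 at P1 and between 0.509 and 0.582 at P60, with both genotypes in each range, while the collagen share is highest in the KO libraries at P60 (5.95% and 2.36%) and lowest in the WT libraries at P60 (1.06% and 1.24%).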

How the data were processed

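RNA-seq values were analysed from 10 libraries of mouse dorsal skin. Reads were aligned by the authors to mm10 with TopHat2 2.1.0 and quantified in Partek, per the submitters' processing notes. Partek's version, the gene annotation and the strand setting are not given in the sources used here. RPKM in the deposited gene table are the authors', and the deposited sample sheet gives a count of alignments and the run of each library. Their comparison table, made by the authors, gives the ratio of KO to WT, a p-value and a q-value for each gene from analysis of variance, per the file headers.

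Differences were tested here with limma 3.58.1 (R 4.3.3) on RPKM + 0.5 in log2, a scale that understates changes of low genes, where 1 RPKM was reached in 2 libraries or more. The model held the 4 group means over all 10 samples, with trended variance moderation, and the P60 tests therefore draw on the P1 spread too. Adjustment (Benjamini-Hochberg) was over all tested genes within a contrast, and adjusted p under 0.05 was called. The fit was also run on simulated data of the same design. Noise there was drawn independently for each value, without pairing or an outlying library. That run therefore says nothing on how stable the P60 calls are. P-values measure the spread between samples, which the labels do not tie to animals or litters. RPKM without raw counts gives no counting interval for a value. Permutation tests were exact and two-sided (scipy 1.17.1). Positions came from GENCODE M21 and promoters from RefSeq (GRCm38.p6). Protein sequences were not used here.

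Collagen genes and all lists were chosen with earlier results of these data known. Values by sample are given for 12 fixed chains, for the 2 called genes of smallest p in each class at P60 and, in each direction, with age in WT skin, for the 3 of smallest p at P1 and in the difference between ages, and, of the pathway lists, changes for the 3 called genes of smallest p. Some further genes are named to account for each class.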

Additional observations from a re-analysis of the deposited data

Results flagged for a closer look

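Col3a1 was lower with age in WT and higher with age in KO skin as reported. Both WT libraries at P60 lay below all 3 WT libraries at P1, and both KO libraries at P60 lay above all 3 KO libraries at P1. The change with age in KO minus that in WT skin was 1.72 on the log2 scale (SE 0.43), at adjusted p = 0.111 (limma, Benjamini-Hochberg over all genes), so the difference did not pass the test. The rise in KO skin was called in 9 of 20 alternatives, was 0.15 without KO P60 replicate 1 and turned to -0.31 with quantile normalization.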

How the results depend on the processing

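The number of collagen genes called higher in KO skin at P60, 15 as reported, was 0 with no filter, 0 with only the P60 samples and 2 with quantile normalization, and ran from 0 to 15 on leaving out 1 library (0 without WT P1 replicate 1, KO P1 replicate 2, KO P1 replicate 3, WT P60 replicate 1 or KO P60 replicate 1). With the replicate number as a block it was 0, with 17 collagen genes at an unadjusted p under 0.05. Without the block 18 collagen genes and 4496 of all 14026 tested genes had such a p. Deviations of same-numbered samples had correlations of -0.17, 0.24 and -0.26 at P1. At P60 they had 0.24, and crossed numbers had -0.24, values that 2 libraries a group force to mirror each other. So few libraries cannot decide whether the samples were paired, and the labels give only a number. The block left 27 calls with age in WT and 25 in KO skin and 0 at P1. The difference between ages, 0 as reported, gave 12 calls with array weights and 0 to 10 on leaving out 1 library (4 without WT P60 replicate 2, 10 without KO P60 replicate 2). The counts with age ranged from 27 to 29 (WT) and 24 to 27 (KO) on leaving out 1 library. Col7a1, not called, ranged from -0.038 (without WT P1 replicate 2) to 0.25 at P1 on leaving out 1 library, and turned at P60 to 0.02 without WT P60 replicate 1 and 0.14 without KO P60 replicate 1. Where a left-out library leaves 1 sample in a group, that sample is assumed to vary like the others. The causes were not tested. With 2 libraries a genotype at P60, a single library sets the size of a change.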
